A study of Homo sapiens with 24 samples.

Results

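The aminoacyl-tRNA synthetases are the enzymes that join each amino acid to its tRNA. The genes described here were taken from a list of 37 synthetase genes, matched by symbol to the rows of the count table. A row was present for 32 of them, among 21925 genes in the table, and these 32 are the members described below. They comprised 16 genes for cytosolic enzymes, 14 genes for mitochondrial enzymes, recognised by a symbol ending in 2, and 2 genes, KARS and GARS, whose products serve both compartments. TARSL2 was counted as cytosolic. EPRS, FARSB, IARS2, MARS2 and RARS were not analysed here. Counts were high enough for all 32 members to enter the test, which covered 13147 genes.

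The cells were K562, a human erythroleukaemia line, with a doxycycline-inducible dCas9-KRAB, a nuclease-dead Cas9 joined to a repressor domain (CRISPR interference). Every culture, controls included, carried this system and 1 single guide RNA (sgRNA), was given doxycycline for 24 h, and yielded polyadenylated RNA from 10000 lysed cells for strand-specific sequencing. The groups were GATA1TSS, with sgRNAs at the place where GATA1 transcription begins (2 sgRNAs, 6 libraries), eHDAC6, a putative GATA1 enhancer (2 sgRNAs, 6 libraries), and NC, negative-control sgRNAs without a target (4 sgRNAs, 12 libraries), each sgRNA with 3 biological replicates. The comparisons ask how the members' mRNA levels differ when GATA1, the main erythroid transcription factor, is repressed at its start site or at this element, and how far the members differ between sgRNAs and between control libraries.

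Most synthetases recognise a single amino acid, so a cell needs the full set for translation in the cytosol and a second, mostly separate set for translation in mitochondria. In mammalian cells many cytosolic synthetase genes are known targets of ATF4, the transcription factor of the amino acid response, together with genes for amino acid synthesis and uptake such as ASNS. ATF4 binds, with a C/EBP partner, to an element that holds the letters TGATGNAA, where N is any base. The mitochondrial synthetases are encoded in the nucleus and imported.

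Promoter windows were read from RefSeq (GRCh38.p14), from 250 bases before to 50 bases after each annotated start, and 25 of the 32 members had at least 1 window. No window was at hand for AARS2, DARS, LARS, TARSL2, VARS, VARS2 and YARS. The letters TGATGNAA on either strand stood in a window of 8 members: AARS, CARS, GARS, IARS, MARS, NARS, TARS and YARS2. Among all genes with a window, 4.46% held them. The longer TGATGNAAT, which contains the shorter form, stood in the windows of GARS and TARS (1.22% of all genes), and TGATGCAAT, a special case of it, in that of TARS (0.293%). The shorter form was searched after the values were known. The 30 bases around each match are shown so that the shared letters can be read beside the changes described below. They run 5′ to 3′ on the strand of the gene, and capitals mark the match, which reads TGATGNAA on the gene's own strand or its reverse complement.
AARS: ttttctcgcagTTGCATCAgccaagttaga
CARS: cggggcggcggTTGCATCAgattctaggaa
GARS: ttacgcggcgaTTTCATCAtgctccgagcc
IARS: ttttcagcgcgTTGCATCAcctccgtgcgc
MARS: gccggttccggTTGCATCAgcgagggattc
NARS: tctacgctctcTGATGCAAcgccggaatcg
TARS: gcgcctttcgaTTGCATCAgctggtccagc
YARS2: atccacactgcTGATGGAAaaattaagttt

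The shown bases lie on GRCh38.p14 at chr16:70289675-70289704 (AARS, minus strand), chr11:3057407-3057436 (CARS, minus), chr7:30594834-30594863 (GARS, plus), chr9:92293692-92293721 (IARS, minus), chr12:57488053-57488082 (MARS, plus), chr18:57621804-57621833 (NARS, minus), chr5:33440956-33440985 (TARS, plus) and chr12:32756076-32756105 (YARS2, minus). Of the 7 cytosolic or dual matches, TTGCATCA or its reverse complement TGATGCAA is shared by 6, and GARS has TTTCATCA. In CARS, GARS, IARS and MARS the match starts between 2 and 33 bases before the annotated start, in NARS and TARS 15 and 3 bases after it, and in AARS and YARS2 187 and 197 bases before it. These are matches of letters, and no binding was measured here.

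Total counts ran from 4290343 (GATA1TSS-Guide2 replicate 2) to 23205811 per library. Levels are given as CPM, the count of a gene scaled to 1 common library size with a correction for library composition. The 12 control libraries fell apart into 8 and 4 on the first principal component, computed without the members, which held 26.1% of their variance. NC-Guide3 and NC-Guide4 each put their replicates 2 and 3 among the 4, and all other control libraries were among the 8. The split thus runs within 2 sgRNAs, and in both it parts replicate 1 from replicates 2 and 3. NC-Guide1 and NC-Guide2 have all their replicates among the 8, so neither the sgRNA nor the replicate number alone gives the split. Its cause was not tested. GATA1 itself did not follow it, with 361 ± 35.1 CPM (SD, n = 8) against 366 ± 12.8 CPM (SD, n = 4). Each comparison with NC is given against all 12 control libraries and against these 4. The 4 were picked from these same data, so p-values against them leave out the spread between the 8 and the 4. The label check held: GATA1 (hg19 chrX) ran from 281 to 395 CPM in the 12 NC libraries, with a median of 370 CPM, from 242 to 267 CPM with eHDAC6, and from 42.1 to 130.4 CPM with GATA1TSS, with no overlap between the 3 groups. Of 7 K562 markers 6 had a row, and HBG1, the fetal globin gene, stood at 1741 to 3724 CPM. All 6 were lower with GATA1TSS and with eHDAC6 against the 12 (edgeR), where 13.7% and 15.3% of all genes were. Against the 4, 1 was lower with each, GATA1, where 5.39% and 0.587% of all genes were. Their summed level was 11747 to 14037 CPM in the 8, 7619 to 8694 CPM in the 4, 6265 to 9026 CPM with eHDAC6 and 6114 to 10160 CPM with GATA1TSS. These markers were not left out when the split was computed, so they may have helped to set it. Of 9 markers of T cells, B cells, monocytes, fibroblasts and epithelium, CD14, MS4A1, COL1A2 and CDH1 stayed under 1 CPM in every library, and the sum of all 9 was 86.5 to 136 CPM with NC, 89.7 to 118 CPM with eHDAC6 and 92.8 to 122 CPM with GATA1TSS. With GATA1TSS 4 of the 5 tested were higher and 1, EPCAM, was lower, where 13.5% of all genes were higher and 13.7% lower. Against the 4, 3 were higher and 1 lower (4.84% and 5.39% of all genes). With eHDAC6 1 was higher and 0 lower against the 12 (15.8% and 15.3% of all genes), and 0 were called against the 4 (1.49%). The part of either marker list in the synthetase results was not tested. RNA of bulk cultures was measured, so fewer cells of a type and less RNA per cell cannot be told apart, and p-values measure the spread between these replicate cultures.

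Between members, levels are compared as CPM per kilobase of exon, taken from the deposited hg19 gene models. In the control libraries AARS was highest at 265 ± 55.3 CPM per kilobase (SD, n = 12), before WARS at 240 ± 93.0 and GARS at 236 ± 62.3. These SDs hold the split of the controls. In the 8, AARS was at 293 ± 44.0, WARS at 298 ± 45.8 and GARS at 277 ± 14.7 (SD, n = 8), within their spread. In the 4, AARS was at 209 ± 19.6, GARS at 153 ± 8.38 and WARS at 124 ± 8.28 (SD, n = 4), further apart than these SDs. The order was not tested. The 16 cytosolic members had a median of 100.6 CPM per kilobase and the 14 mitochondrial members a median of 13.3, with a range of 8.42 to 26.4. TARSL2, a second gene for a threonine enzyme, was the lowest of all members at 3.31 ± 0.614 CPM per kilobase (SD, n = 12). The value of SARS, 19.2 CPM per kilobase, rests on 4.884 kb of exon over both of its transcripts. On the 1.939 kb of exon in the transcript with the longest genomic span it would be 48.3 CPM per kilobase. That transcript is not the one with the most exon. With GATA1TSS the order of the high members differed from that in the controls. AARS held rank 1 in both, WARS had rank 2 in NC and rank 10 with GATA1TSS, VARS rank 9 and then 2, and KARS rank 8 and then 3. The order also differed between the control libraries. WARS, VARS and KARS stood at 298, 109 and 124 CPM per kilobase in the 8, and at 124, 129 and 127 in the 4. With GATA1TSS they stood at 81.2, 126 and 117.

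**Figure D1:**
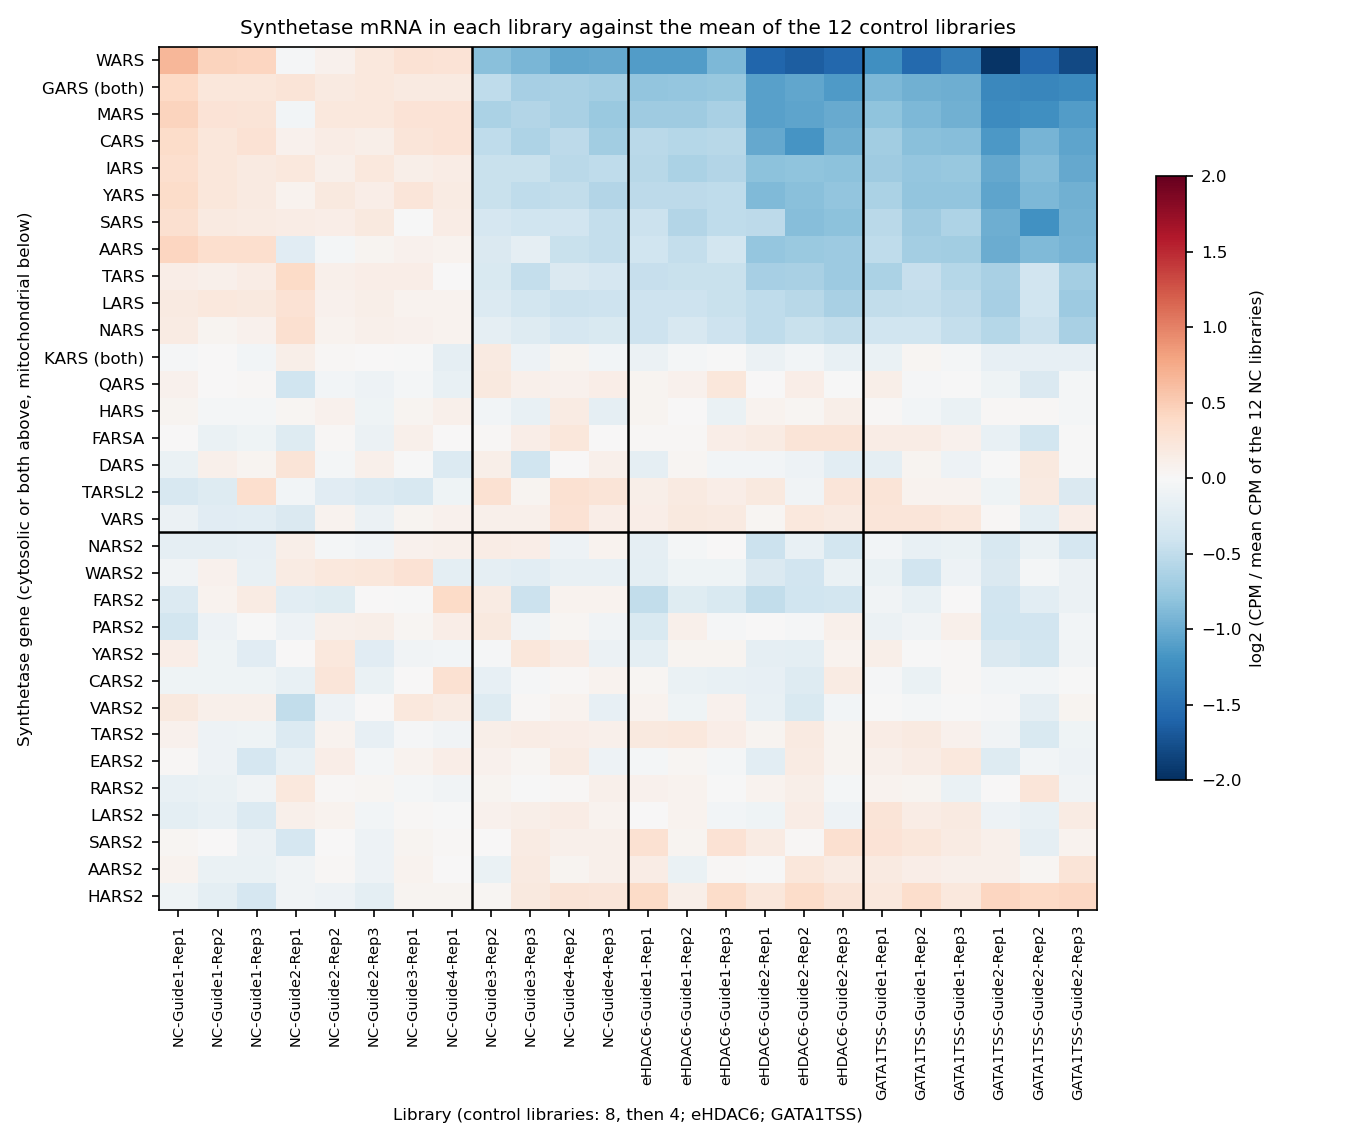
Each cell gives the log2 ratio of a member's CPM in 1 library to its mean over the 12 NC libraries, with genes in rows (cytosolic or dual above the horizontal line, mitochondrial below) and libraries in columns. The 11 upper rows are blue in the GATA1TSS and eHDAC6 libraries and paler blue in the 4 control libraries that stand apart, while the rows from KARS down show paler colours, red for HARS2 in most of these libraries.

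Repression of the GATA1 start site went with lower mRNA for most cytosolic synthetases and for few mitochondrial ones. Of the 18 cytosolic or dual members, 11 were lower against the 12 NC libraries and none was higher, while of the 14 mitochondrial members 1 was lower and 1 higher (edgeR, adjusted p under 0.05). Among all genes 27.2% were called in this comparison, 13.7% lower and 13.5% higher. The median log2 fold change was −0.54 for the cytosolic or dual members, −0.01 for the mitochondrial members and 0.00 for all genes tested. Against the 4 control libraries, where 10.2% of all genes were called and 5.39% were lower, 10 cytosolic or dual members and 1 mitochondrial member were lower and none was higher (4.84% of all genes were), and the cytosolic or dual median was −0.22. The 8 libraries alone as controls, where 33.1% of all genes were called, gave 15 called members.

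WARS, the tryptophanyl-tRNA synthetase of the cytosol, is also known as a gene induced by interferon. It lies at hg19 chr14:100800125-100842680, on the minus strand, with 11 exons in the transcript with the longest genomic span. It had the largest fall of the 32 members. Its level ran from 348 to 1129 CPM in the 12 NC libraries, with a median of 792 CPM. It was 305, 241 and 272 CPM with GATA1TSS-Guide1, and 183, 241 and 203 CPM with GATA1TSS-Guide2. All 6 GATA1TSS libraries lay below all 12 control libraries. The log2 fold change was −1.53 (SE 0.17, adjusted p = 2.19e-07, edgeR). Against the 4 control libraries, which held 348 to 399 CPM, it was −0.63 (SE 0.07, adjusted p = 3.09e-06).

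GARS charges tRNA with glycine in both compartments from 1 gene (chr7:30634181-30673648, plus strand, 17 exons). Its control libraries ran from 405 to 855 CPM with a median of 734 CPM. With GATA1TSS-Guide1 it stood at 347, 333 and 331 CPM, and with GATA1TSS-Guide2 at 265, 263 and 266 CPM. The 6 values lie below every control library, and the 3 libraries of an sgRNA lie close together. The log2 fold change was −1.09 (SE 0.11, adjusted p = 4.73e-08, edgeR), and against the 4, at 405 to 455 CPM, it was −0.49 (adjusted p = 4.46e-07). KARS, the lysine enzyme and the other dual gene (chr16:75661622-75681585, minus strand), behaved differently. It ran from 241 to 310 CPM in the controls, and was 251, 281 and 267 CPM with GATA1TSS-Guide1 and 245, 244 and 246 CPM with GATA1TSS-Guide2, values inside the range of the controls. Its log2 fold change was −0.10 (SE 0.05, adjusted p = 0.107, edgeR), and −0.13 against the 4 (adjusted p = 0.192).

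**Figure D2:**
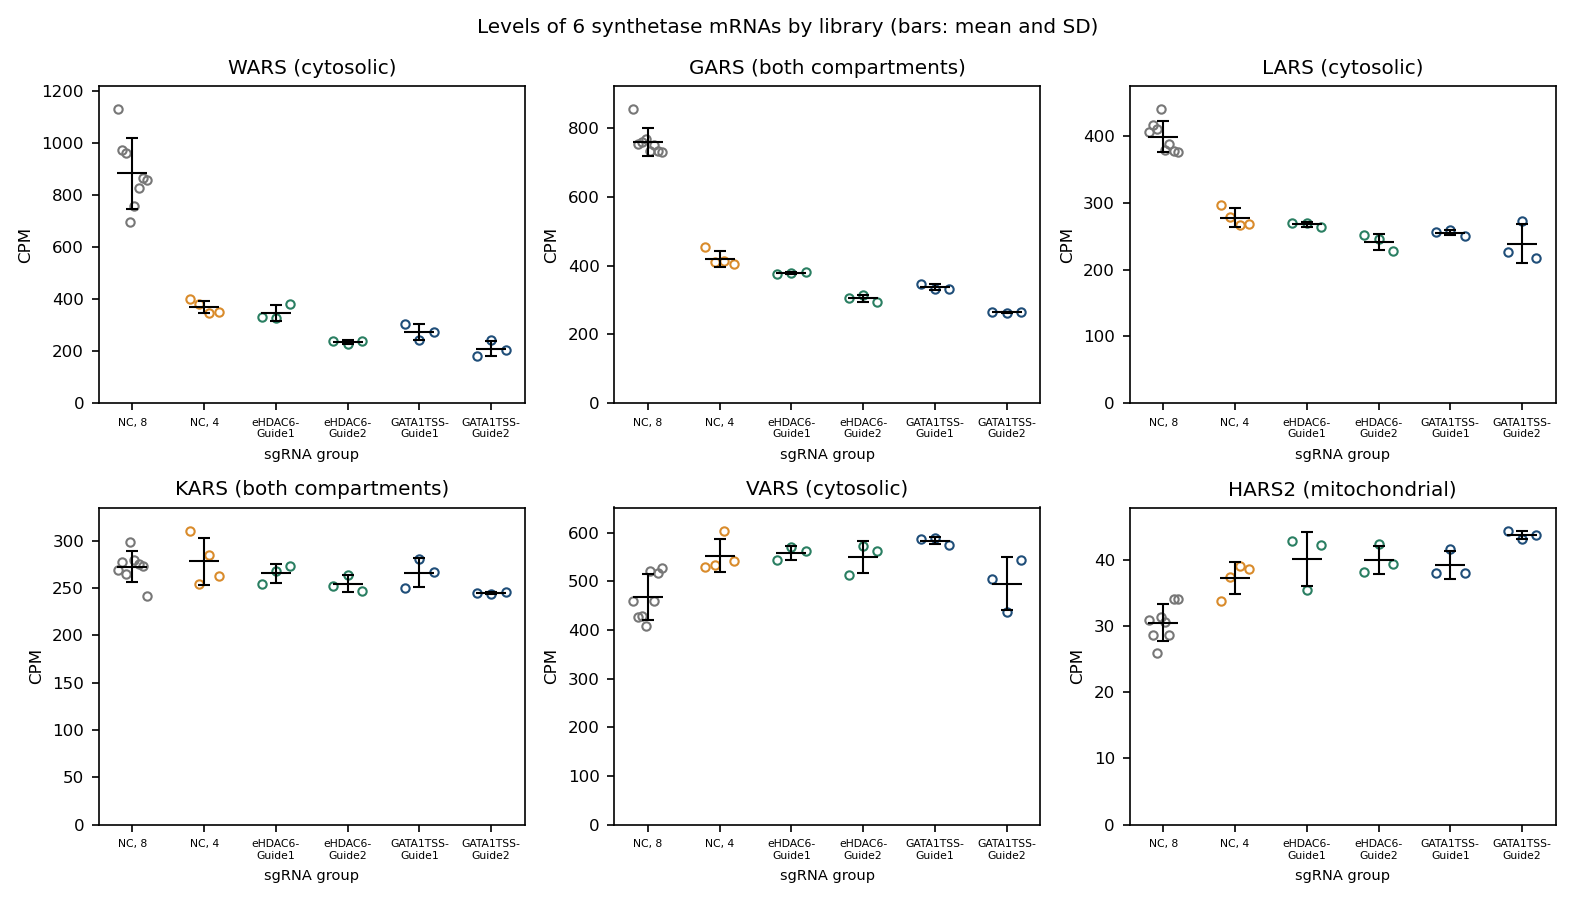
Points are the CPM of 6 members in each library, grouped by sgRNA, with the control libraries drawn as the 8 and the 4, and bars give the mean and SD. WARS, GARS and LARS are high in the 8 control libraries and low in the others, KARS is level, and HARS2 is lowest in the 8.

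MARS, the methionine enzyme, charges the initiator tRNA as well (chr12:57881736-57910438, plus strand, 21 exons). It ran from 321 to 728 CPM in the controls, with a median of 619 CPM. With GATA1TSS-Guide1 it was 308, 288 and 275 CPM and with GATA1TSS-Guide2 225, 230 and 248 CPM. The groups did not overlap, with a log2 fold change of −1.02 (SE 0.12, adjusted p = 7.18e-07, edgeR). Its exons share 68 bases with DDIT3 on the opposite strand. The sources used here do not give whether counting used the strand, so the value of MARS is uncertain to that extent. DDIT3 is a stress-response gene of the amino acid list below, and it was lower too, at −0.75 (SE 0.08, edgeR). CARS, the cysteine enzyme (chr11:3022152-3078681), ran from 157 to 329 CPM in the controls and from 114 to 157 CPM with GATA1TSS. Its highest GATA1TSS library was just under its lowest control, and the log2 fold change was −0.90 (SE 0.11, adjusted p = 1.27e-06, edgeR).

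IARS, the isoleucine enzyme and one of the largest of the family (chr9:94972490-95056038, 34 exons), ran from 487 to 891 CPM in the controls and from 347 to 433 CPM with GATA1TSS. Its log2 fold change was −0.84 (SE 0.08, adjusted p = 6.85e-08, edgeR). YARS, the tyrosine enzyme (chr1:33240840-33283633), went from 408 to 798 CPM in the controls to 297 to 397 CPM, a log2 fold change of −0.84 (SE 0.10, adjusted p = 3.79e-07). It shares 172 exon bases with S100PBP on the opposite strand. For both genes the GATA1TSS libraries lay below all 12 controls. SARS, the serine enzyme (chr1:109756515-109780804), ran from 66.9 to 117 CPM in the controls and from 40.5 to 64.6 CPM with GATA1TSS, with a log2 fold change of −0.81 (SE 0.08, adjusted p = 6.1e-08). AARS, the alanine enzyme (chr16:70286297-70323412, 21 exons), ran from 640 to 1193 CPM in the controls and from 444 to 624 CPM with GATA1TSS, with a log2 fold change of −0.76 (SE 0.07, adjusted p = 1.56e-08). For SARS and for AARS the GATA1TSS and control libraries did not overlap.

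Smaller falls were found for TARS, LARS and NARS, which charge threonine, leucine and asparagine. Their log2 fold changes were −0.55 (adjusted p = 2.18e-06), −0.53 (adjusted p = 3.2e-06) and −0.48 (adjusted p = 1.61e-06, all edgeR). NARS ran from 213 to 338 CPM in the controls and from 173 to 205 CPM with GATA1TSS, without overlap. LARS (chr5:145492589-145562294, 32 exons) ran from 267 to 441 CPM in the controls and from 218 to 273 CPM with GATA1TSS, and 1 GATA1TSS library lay inside the range of the controls. TARS ran from 354 to 640 CPM in the controls and from 309 to 375 CPM with GATA1TSS, with 2 libraries inside that range. In all, 9 members had all 6 GATA1TSS libraries below all 12 control libraries, where 0.996% of all genes did: AARS, CARS, GARS, IARS, MARS, NARS, SARS, WARS and YARS. Against the 8 alone 11 members had no overlap (4.84% of all genes), and against the 4 alone 9 had none (2.89%). Against the 4 controls the log2 fold changes were −0.44 for AARS, −0.42 for SARS, −0.39 for MARS, −0.38 for IARS, −0.35 for YARS, −0.34 for CARS, −0.22 for NARS and −0.21 for TARS, each below an adjusted p of 0.05. LARS no longer passed, at −0.17 (SE 0.06, adjusted p = 0.059, edgeR).

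The other cytosolic members did not pass the test, and their log2 fold changes, that of DARS (aspartate) among them, lay between −0.05 and 0.12. QARS, the glutamine enzyme, was at −0.05, HARS (histidine) at −0.02, FARSA, the alpha subunit of the phenylalanine enzyme, at −0.01, TARSL2 at 0.02 and VARS (valine) at 0.12. TARSL2 ran from 8.68 to 13.7 CPM in the controls and from 8.88 to 13.0 CPM with GATA1TSS. VARS ran from 408 to 603 CPM and from 436 to 589 CPM, with an adjusted p of 0.0812 (edgeR). Leaving out GATA1TSS-Guide2 replicate 2, the shallowest library, brought VARS to 0.16 (adjusted p = 0.0172), and leaving out NC-Guide2 replicate 2 brought it to 0.15 (adjusted p = 0.0277). VARS and VARS2 also have gene models on alternative chromosome 6 contigs, so their counts are uncertain. The promoter letters shown above stood in the windows of 7 of the 9 lower cytosolic or dual members with a window, in none of the 4 others with a window, and in 1 of 12 mitochondrial members. WARS and SARS, both among the lower members, had windows without them. This short form was searched after the values were known, and 4.46% of all genes with a window held it. Of the longer forms, which were fixed first, TGATGNAAT stood in 2 of the 9 and TGATGCAAT in 1. Whether the letters go with the calls was not tested.

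**Figure D3:**
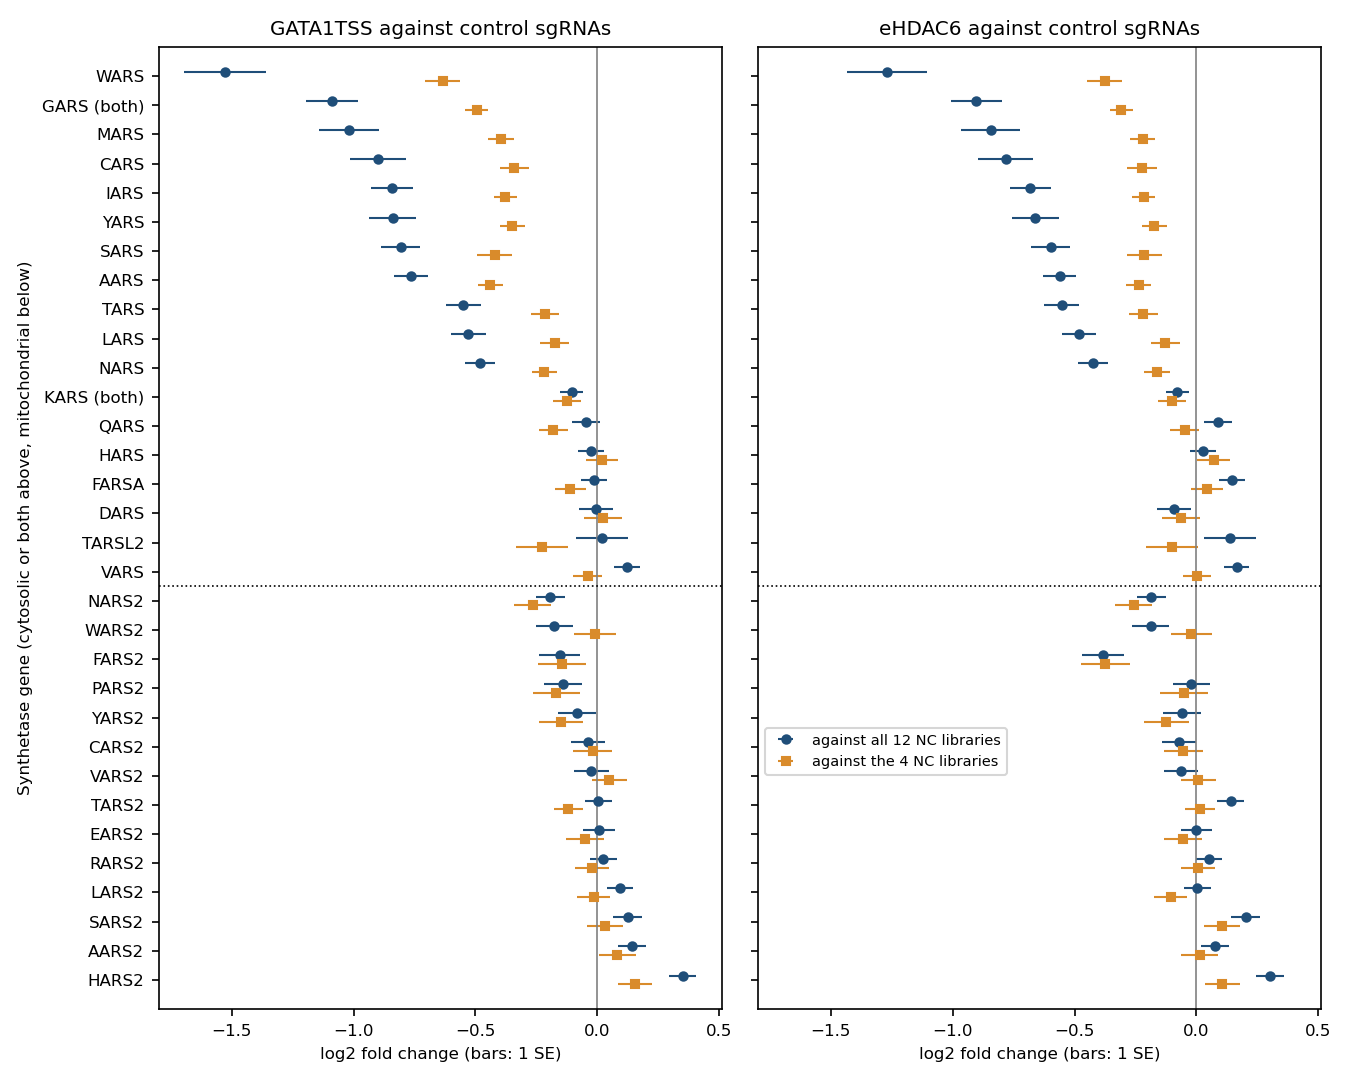
Log2 fold changes of the 32 members with GATA1TSS (left) and eHDAC6 (right), against all 12 NC libraries (circles) and against the 4 (squares), with bars of 1 SE. The upper 11 members lie left of 0 with both sets of controls, from −1.53 to −0.48 with GATA1TSS against the 12, and lie closer to 0 against the 4.

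Among mitochondrial members, HARS2, the histidine enzyme of mitochondria (chr5:140071011-140078903, plus strand), was the member called higher. It ran from 26.0 to 39.1 CPM in the controls, with a median of 32.6 CPM. With GATA1TSS it was 38.1, 41.7 and 38.0 CPM (Guide1) and 44.4, 43.2 and 43.8 CPM (Guide2). The 6 libraries lay above all of the 8 controls, as for 4.9% of all genes, and overlapped the 4, which held 33.8 to 39.1 CPM. Its log2 fold change was 0.35 (SE 0.06, adjusted p = 4.07e-05, edgeR) against the 12 and 0.16 (SE 0.07, adjusted p = 0.182) against the 4, where the call was lost. HARS2 lies head to head with HARS, and their first exons overlap by 302 bases on opposite strands, so reads there cannot be assigned without strand. NARS2, the asparagine enzyme of mitochondria (chr11:78147007-78285909), ran from 29.1 to 36.5 CPM in the controls and from 25.9 to 31.5 CPM with GATA1TSS, with overlap. Its log2 fold change was −0.19 (SE 0.06, adjusted p = 0.0152, edgeR), −0.27 against the 4 (adjusted p = 0.0258) and −0.18 against the 8 (adjusted p = 0.056), where the call was lost. It was lost in 8 of 41 alternatives, among them without GATA1TSS-Guide2 replicate 1 (−0.18, adjusted p = 0.0518), without replicate 3 of that sgRNA (−0.17, adjusted p = 0.0569) and without the sgRNA as a whole (−0.11, adjusted p = 0.366).

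The other 12 mitochondrial members lay between −0.18 (WARS2) and 0.14 (AARS2, adjusted p = 0.0623, edgeR). WARS2, the tryptophan enzyme of mitochondria, had an adjusted p of 0.0872, while its cytosolic counterpart WARS had the largest fall of all. The same pairing of a called cytosolic gene with an uncalled mitochondrial gene was seen for AARS and AARS2, CARS and CARS2, LARS and LARS2, SARS and SARS2, TARS and TARS2, and YARS and YARS2. Other pairs differed from this: NARS and NARS2 were both called lower, HARS was not called while HARS2 was higher, and neither VARS nor VARS2 nor FARSA nor FARS2 was called. The difference within a pair was not tested. Calls near the threshold moved with single libraries: AARS2 passed without GATA1TSS-Guide2 replicate 2 (0.16, adjusted p = 0.0386), NC-Guide1 replicate 1 (0.16, adjusted p = 0.0393), NC-Guide3 replicate 3 (0.16, adjusted p = 0.0314) or NC-Guide4 replicate 3 (0.17, adjusted p = 0.0452), and WARS2 passed without NC-Guide3 replicate 3 (−0.20, adjusted p = 0.0466).

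With eHDAC6, the same NC libraries served as controls, so the 2 comparisons are not independent and their values are given side by side only. Of the 18 cytosolic or dual members 11 were lower and 2 higher, and of the 14 mitochondrial members 2 were lower and 2 higher. Among all genes 31.1% were called, 15.3% lower and 15.8% higher. The cytosolic or dual median was −0.52, the mitochondrial median −0.01 and that of all genes −0.01. Against the 4 controls, where 1.49% of all genes were called and 0.587% were lower, 5 members were lower and none was higher (0.899% of all genes were), and the cytosolic or dual median was −0.17. The 8 alone, where 37.1% of all genes were called, gave 20 called members.

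WARS stood at 329, 327 and 381 CPM with eHDAC6-Guide1 and at 238, 226 and 239 CPM with eHDAC6-Guide2. The 381 CPM library lies inside the range of the 4 controls, and the other 5 lie below all 12. The log2 fold change was −1.27 (SE 0.17, adjusted p = 6.31e-06, edgeR), and −0.38 against the 4 (adjusted p = 0.0056). GARS was at 376, 379 and 381 CPM with Guide1 and at 305, 315 and 295 CPM with Guide2, below all 12 controls, with a log2 fold change of −0.90 (adjusted p = 2.24e-06) and −0.31 against the 4 (adjusted p = 0.000995). IARS, from 400.4 to 484 CPM, was the other member with all 6 libraries below all 12 controls, where 0.753% of all genes were. GARS and IARS were also the 2 members below all of the 4 alone (1.99% of all genes). The log2 fold change of IARS was −0.68 (adjusted p = 3.95e-06) and −0.22 against the 4 (adjusted p = 0.0204).

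MARS ran from 253 to 344 CPM with eHDAC6, and its log2 fold change was −0.84 against the 12 and −0.22 against the 4 (adjusted p = 0.0297, edgeR). AARS ran from 521 to 685 CPM, and its values were −0.56 against the 12 and −0.24 against the 4 (adjusted p = 0.0174). The other 6 lower members against the 12 were CARS at −0.78, YARS at −0.66, SARS at −0.60, TARS at −0.55, LARS at −0.48 and NARS at −0.43, with adjusted p-values from 6.22e-06 (TARS) to 2.15e-05 (LARS). None of these 6 passed against the 4, where they lay between −0.22 (CARS, adjusted p = 0.0677) and −0.13 (LARS, adjusted p = 0.31). All 11 genes had their 6 eHDAC6 libraries below the 8 control libraries, as 7.3% of all genes did. KARS was at −0.08 (adjusted p = 0.219), running from 247 to 274 CPM.

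FARS2, the phenylalanine enzyme of mitochondria (chr6:5261584-5771816, plus strand), ran from 18.7 to 32.8 CPM in the controls and from 17.8 to 21.1 CPM with eHDAC6. Its log2 fold change was −0.38 (SE 0.09, adjusted p = 0.00162, edgeR), and against the 4 it was −0.37 (SE 0.10, adjusted p = 0.0564), where the call was lost. With GATA1TSS it was at −0.15 (adjusted p = 0.189), and with eHDAC6 against GATA1TSS at −0.23 (adjusted p = 0.27), so a difference between the elements was not shown. NARS2 was at −0.19 (adjusted p = 0.018), at −0.26 against the 4 (adjusted p = 0.095) and at −0.17 against the 8 (adjusted p = 0.066), so the call was lost with either set alone. It was also lost without eHDAC6-Guide1 replicate 1 (−0.16, adjusted p = 0.0693), eHDAC6-Guide2 replicate 1 (−0.16, adjusted p = 0.0645) or eHDAC6-Guide2 replicate 3 (−0.17, adjusted p = 0.0545), and without eHDAC6-Guide2 as a whole (−0.06, adjusted p = 0.62).

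The 4 higher members were HARS2, SARS2, VARS and FARSA. HARS2 was at 42.8, 35.5 and 42.3 CPM with eHDAC6-Guide1 and at 38.2, 42.4 and 39.4 CPM with eHDAC6-Guide2, above the 8 controls (8.28% of all genes), with a log2 fold change of 0.30 (SE 0.06, adjusted p = 0.00035, edgeR). Against the 4 it was at 0.11 (adjusted p = 0.513). SARS2, the serine enzyme of mitochondria, ran from 50.2 to 61.2 CPM against 38.9 to 55.2 CPM in the controls, with a log2 fold change of 0.20 (adjusted p = 0.0126). It fell short of the threshold without eHDAC6-Guide2 replicate 3 (0.17, adjusted p = 0.0634) and against the 4 (0.11, adjusted p = 0.533). VARS was at 0.16 (adjusted p = 0.017), from 512 to 573 CPM, and lost its call without eHDAC6-Guide2 replicate 2 (0.15, adjusted p = 0.0515). Against the 4 its value was 0.00. FARSA, from 135 to 161 CPM, was at 0.15 (adjusted p = 0.0392), and lost its call in 18 of 41 alternative fits. These include the omission of NC-Guide1 replicate 2 or 3, NC-Guide2 replicate 1 or 3, NC-Guide3 replicate 2, NC-Guide4 replicate 1, any replicate of eHDAC6-Guide1, and eHDAC6-Guide2 replicate 2 or 3, with values from 0.13 to 0.16. Just short of the threshold were TARS2 at 0.14 (adjusted p = 0.053) and WARS2 at −0.19 (adjusted p = 0.0615). TARS2, the threonine enzyme of mitochondria, passed without GATA1TSS-Guide2 replicate 2, NC-Guide1 replicate 1, NC-Guide2 replicate 2, NC-Guide3 replicate 3, or NC-Guide4 replicate 2 or 3, at 0.14 to 0.17. WARS2 passed without NC-Guide3 replicate 2 (−0.21, adjusted p = 0.043), NC-Guide3 replicate 3 (−0.21, adjusted p = 0.0322) or eHDAC6-Guide2 replicate 3 (−0.23, adjusted p = 0.0481).

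The elements were compared with each other in the fit of all 24 libraries, in which the controls enter the scaling and the estimate of the spread. Of the 32 members none differed between eHDAC6 and GATA1TSS (edgeR), where 1.53% of all genes did. There were 5 members at an unadjusted p under 0.05, and DESeq2 also called 0. GATA1 itself was higher with eHDAC6 by 1.67 on the log2 scale. The largest difference was that of WARS at 0.26, with an interval of 2 SE from −0.11 to 0.62, and the smallest p was that of AARS at 0.20 (0.05 to 0.36, adjusted p = 0.204). Of the 18 cytosolic or dual members 16 had a positive difference, with a median of 0.13, and of the 14 mitochondrial members 6 did, with a median of −0.01. Without the sgRNA GATA1TSS-Guide1, where 6.98% of all genes were called, 4 members were called, all higher with eHDAC6: AARS at 0.36 (adjusted p = 0.0251), FARSA at 0.30 (adjusted p = 0.0262), SARS at 0.41 (adjusted p = 0.0342) and TARS2 at 0.28 (adjusted p = 0.0485).

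Within an element, no member passed the test between the sgRNAs labelled Guide2 and Guide1. For GATA1TSS, 25 of 32 members had a negative log2 difference (Guide2 minus Guide1), with a median of −0.20, and none was called (edgeR), where 3.48% of all genes were. There were 9 members at an unadjusted p under 0.05, and DESeq2 called 2 (5.19% of all genes), SARS (−0.41, adjusted p = 0.048) and FARSA (−0.27, adjusted p = 0.0406). In edgeR SARS stood at −0.40 (adjusted p = 0.0812) and FARSA at −0.28 (adjusted p = 0.0771). SARS passed without NC-Guide3 replicate 1 (adjusted p = 0.0496), NC-Guide4 replicate 1 (adjusted p = 0.0218) or NC-Guide4 replicate 3 (adjusted p = 0.0471), FARSA without GATA1TSS-Guide2 replicate 3 (−0.37, adjusted p = 0.0432) or NC-Guide2 replicate 1 (−0.28, adjusted p = 0.049), and AARS without NC-Guide4 replicate 1 (−0.32, adjusted p = 0.0281). For GATA1 the log2 difference was −1.10.

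For eHDAC6, 26 of 32 members had a negative log2 difference, with a median of −0.07. None was called (edgeR, where 0.0152% of all genes were called), 4 had an unadjusted p under 0.05, and DESeq2 called 0. The 4 were AARS at −0.33 (SE 0.11), CARS at −0.50 (SE 0.18), NARS2 at −0.25 (SE 0.10) and WARS at −0.56 (SE 0.26). Compared with NC one sgRNA at a time, each of the 4 sgRNAs had 11 of 18 cytosolic or dual members lower. Over all genes 5.84% were lower with GATA1TSS-Guide1, 11.7% with GATA1TSS-Guide2, 6.67% with eHDAC6-Guide1 and 7.17% with eHDAC6-Guide2. Higher calls among the 18 numbered 1, 0, 0 and 1 in that order, beside 6.61%, 11.7%, 8.52% and 9.74% of all genes. Of the 14 mitochondrial members 0, 1, 1 and 2 were lower and 3, 1, 2 and 1 higher. The medians were −0.51 and −0.57 for the GATA1TSS sgRNAs and −0.40 and −0.60 for the eHDAC6 sgRNAs.

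**Figure D4:**
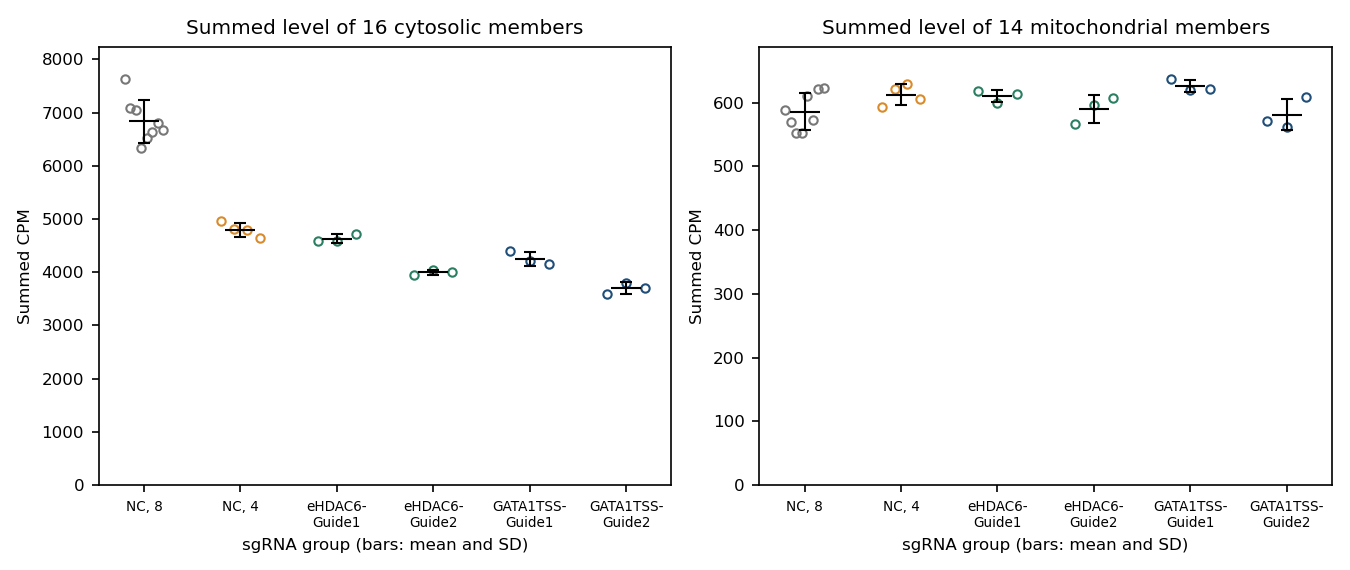
Points are the summed CPM of the 16 cytosolic members (left) and the 14 mitochondrial members (right) in each library, with the mean and SD of each group. The cytosolic sum is highest in the 8 control libraries, at 6842 ± 406 CPM, while the mean mitochondrial sum of every sgRNA lies between 570 and 626 CPM.

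Summed over the class, the 16 cytosolic members held 6842 ± 406 CPM in the 8 control libraries (SD, n = 8) and 4798 ± 131 CPM in the 4 (SD, n = 4). The sum was 4632 ± 82.9 CPM with eHDAC6-Guide1, 3998 ± 42.5 CPM with eHDAC6-Guide2, 4255 ± 135 CPM with GATA1TSS-Guide1 and 3702 ± 109 CPM with GATA1TSS-Guide2 (SD, n = 3 each). The libraries of eHDAC6-Guide2 and of both GATA1TSS sgRNAs lay below all 12 controls, and those of eHDAC6-Guide1 reached into the range of the 4. The 14 mitochondrial members held 586 ± 29.2 CPM in the 8 (SD, n = 8), 613 ± 16.7 CPM in the 4 (SD, n = 4), 600.4 ± 18.6 CPM with eHDAC6 and 604 ± 29.6 CPM with GATA1TSS (SD, n = 6 each), ranges that overlap.

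The control libraries differed among themselves in several cytosolic members. Between the 4 NC sgRNAs 11 of 32 members were called (edgeR), where 12.3% of all genes were: AARS, IARS, LARS, GARS, SARS, TARS, WARS, NARS, YARS, VARS and HARS2. The smallest adjusted p-values were 0.00669 for AARS, 0.0184 for IARS and 0.0188 for LARS. AARS held 1116 to 1193 CPM with NC-Guide1, 762 to 919 CPM with NC-Guide2, 942, 725 and 780 CPM with NC-Guide3 and 929, 652 and 640.1 CPM with NC-Guide4. The count rested on few libraries. It was 7, 6 and 6 without replicate 1, 2 or 3 of NC-Guide1, 3 without NC-Guide2 replicate 1, 7 without NC-Guide3 replicate 2 and 5 without NC-Guide4 replicate 2, and it was 0 without NC-Guide1 and 2 without NC-Guide2 as whole sgRNAs.

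The split into 8 and 4 was found in the data, so the members' values across it are a description. WARS was 2.39 times as high in the 8 as in the 4, at 884 ± 136 CPM (SD, n = 8) against 369 ± 24.6 CPM (SD, n = 4). The ratio was 1.85 for MARS, 1.81 for GARS, 1.75 for CARS, 1.63 for YARS, 1.60 for IARS, 1.48 for SARS, 1.44 for LARS, 1.41 for TARS, 1.40 for AARS and 1.31 for NARS. In log2 CPM the cytosolic median was 0.49 higher in the 8, the mitochondrial median was −0.08, and that of all genes tested 0.01. CARS, GARS, IARS, LARS, MARS, NARS, SARS, TARS, WARS and YARS were higher in each of the 8 than in any of the 4, as 5.9% of all genes were, and QARS, TARS2 and VARS were lower in each, as 5.83% of all genes were. Within NC-Guide3, WARS was 868, 399 and 380 CPM in replicates 1, 2 and 3, and within NC-Guide4 it was 858, 348 and 351 CPM. The replicates of 1 sgRNA thus differed more in WARS than the 4 control libraries differed from eHDAC6-Guide1.

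Related genes from 2 lists were counted beside the synthetases. The amino acid response list holds genes of amino acid synthesis, uptake and stress signalling, and 23 of its 28 genes were tested. With GATA1TSS 22 were lower and none higher, where 13.7% of all genes were lower, with a median log2 fold change of −1.13. Against the 4 controls 21 were lower (5.39% of all genes were), with a median of −0.51. ASNS, the asparagine synthetase that makes the amino acid used by NARS, was at −2.19 (SE 0.23), and −0.89 against the 4. PSAT1, an enzyme of serine synthesis, was at −2.18 (SE 0.23), and −0.99 against the 4. With eHDAC6 21 were lower (15.3% of all genes were), with a median of −0.97, and 9 against the 4 (0.587%). ASNS was at −1.76 with eHDAC6, and at −0.46 against the 4. Across the split of the controls the list's median was 0.87 higher in the 8. Only the synthetases were left out when the split was computed. Genes of this list may therefore have helped to set it, and the value is a description. These are fold changes of the list, set beside a cytosolic synthetase median of −0.54 with GATA1TSS, and ATF4 itself was not analysed here.

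The list of partners holds other genes of tRNA charging and export, and 11 of its 14 genes were tested. With GATA1TSS 4 were lower and none higher, a share of 36.4%, where 13.7% of all genes were lower and 27.2% were called in either direction. With eHDAC6 27.3% were lower and none higher, where 15.3% of all genes were lower and 31.1% were called in either direction. These shares rest on few genes, and no set test was run. XPOT, the exporter of tRNA from the nucleus, was at −0.62 (SE 0.07), EEF1E1, a scaffold of the multisynthetase complex, at −0.47 (SE 0.08), PTRH2, a peptidyl-tRNA hydrolase, at −0.23 (SE 0.07), and AARSD1, an editing protein for mischarged alanine tRNA, at −0.17 (SE 0.07, adjusted p = 0.0492, edgeR). Against the 4 controls 1 was lower, XPOT at −0.28 (adjusted p = 0.00239). With eHDAC6 3 were lower, XPOT at −0.54, EEF1E1 at −0.32 and PTRH2 at −0.18, and against the 4 none was (1 at an unadjusted p under 0.05). The other scaffolds of the complex, AIMP1 and AIMP2, did not pass, at 0.03 and −0.01 with GATA1TSS.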

How the data were processed

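The authors deposited 1 table of raw read counts per gene symbol for all 24 libraries, and an hg19 RefSeq gene model file whose positions are the other values used here. Per the submitters' processing notes, the hg19 build was used with TopHat2 2.0.8, Bowtie2 2.1.0, SAMtools 0.1.19 and Picard, whose roles are not stated. Which tool counted the reads, and whether it used strand, is not given in the sources used here.

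From the deposited counts, edgeR 4.0.16 (R 4.3.3, with limma 3.58.1) was run with TMM scaling, the filterByExpr filter by sgRNA (minimum count 10, minimum total 15, proportion 0.7), 1 coefficient per sgRNA and a quasi-likelihood F test. Except where DESeq2 is named, p-values are edgeR's, adjusted by Benjamini-Hochberg over all genes tested, and a call is an adjusted p under 0.05. DESeq2 values carry that tool's own adjustment and are called at the same threshold. CPM values were computed from the same counts with TMM-scaled totals. The element contrasts weight sgRNAs equally. The control split came from 2000 variable genes without the members, on log2 CPM with a prior count of 2. Alternatives were DESeq2 1.42.0, other scaling, no filter, the replicate block, summed counts and omitted libraries or sgRNAs. On counts simulated for GATA1TSS against NC (12973 genes), 76.8% of genes changed 1.5-fold and 90.9% of genes changed 2-fold were called. There were 9 calls among unchanged genes. The simulated controls shared 1 mean per gene and held no split, so these values need not apply to genes that differ across the split.

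The members and the gene lists were chosen with earlier results of these data known. For WARS, GARS, MARS, KARS and HARS2 values per sample were given in at least 1 element, and the other named members were given by range or fold change. Differences across the control split have no test, since the split was found in the data.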

Additional observations from a re-analysis of the deposited data

Results flagged for a closer look

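PARS2, the proline enzyme of mitochondria, had 1 library far from the others of its group: 16.3 CPM in eHDAC6-Guide1 replicate 1, where the other 5 eHDAC6 libraries held 19.8 to 21.6 CPM. It was the only one of 64 groups of 6 libraries examined (32 members, both elements), and chance alone sets apart about 1 group in 20.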

How the results depend on the processing

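The count of members called with GATA1TSS stayed between 11 and 16 of 32 under every alternative run (13 in the main test), and no member's called change turned its sign. With eHDAC6 (17) it was 7 with counts summed per sgRNA and 5 against the 4 control libraries, and 15 to 19 when 1 library was left out. Between the elements (0) it was 4 without the sgRNA GATA1TSS-Guide1. Between the GATA1TSS sgRNAs (0) it was 1 without the filter, 2 with DESeq2, 2 without the sgRNA NC-Guide4 and 0 to 2 when 1 library was left out. Between the NC sgRNAs (11) it was 0 without NC-Guide1, 2 without NC-Guide2 and 3 to 14 when 1 library was left out. The cause of these moves was not tested. With the replicate number as a block the counts were 13 with GATA1TSS, 17 with eHDAC6, 1 between the GATA1TSS sgRNAs (SARS) and 13 between the NC sgRNAs. In their deviations from the sgRNA mean, same-numbered libraries had a median r of 0.0158, with 8 of 84 pairs over 0.1 and a maximum of 0.431. Libraries with other numbers had a median of −0.00592, with 18 of 168 pairs over 0.1 and a maximum of 0.251. Most same-numbered pairs thus did not deviate together, and the numbers were not taken as pairs. In NC-Guide3 and NC-Guide4, however, replicate 1 stood apart from replicates 2 and 3 alike. Of 24 libraries, 9 correlated best with their own number. Over all genes, 3580 were called with GATA1TSS (1775 higher, 1805 lower), 3700 with library totals alone (2299 higher, 1401 lower) and 632 with counts summed per sgRNA. With eHDAC6 4088 were called, and 280 with summed counts. Between the elements 201 were called, 406 with DESeq2, 306 without the filter, 15 with the element as the group and 0 with summed counts. Between the NC sgRNAs 1618 were called, and 2744 with DESeq2. The SE of the log2 change with GATA1TSS ran from 0.05 (KARS) to 0.17 (WARS), which limits the differences that could be called.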

Other observations

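The cytosolic synthetases that sit in the multisynthetase complex were looked at as a group after their values were seen. Of the 6 in the table, IARS, LARS and MARS were lower with GATA1TSS against the 12 control libraries, while DARS, KARS and QARS did not pass. Of the 12 other cytosolic or dual members 8 were lower (AARS, CARS, GARS, NARS, SARS, TARS, WARS and YARS) and 4 did not pass (FARSA, HARS, TARSL2 and VARS). Among all genes 27.2% were called. Membership was not tested against the changes.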
